A study of Homo sapiens with 2 samples.

Results

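IGF2BP3 peaks on RPPH1 and 5 other structured RNA genes (RMRP, RN7SK, RN7SL1, RN7SL2 and TERC) are described here, as mapped in OE-19 cells. The 6 genes are 6 of the 62700 genes of GENCODE release 44 on hg38. They were chosen by name with their peak values already known, so their strength is a description with no test. A peak was taken when it overlapped a gene or lay within 200 bp of it, which gave 1 peak per gene in each replicate, 12 in all, of 21142 peaks in replicate 1 and 20799 in replicate 2. All 12 overlapped their gene, and the nearest peaks left out lay between 5987 and 100789 bp away.

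OE-19 is an established cell line of adenocarcinoma of the esophagogastric junction, and the labels name no treatment. IGF2BP3 is an RNA-binding protein that stabilizes many mRNAs. In LACE-seq, cells are crosslinked with UV light, the protein is immunoprecipitated with its RNA, and cDNA ends are amplified linearly and sequenced. The 2 libraries are replicates 1 and 2 of a single group, so no condition could be compared.

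The 6 RNAs fold into stable structures and work inside protein complexes. RPPH1 is the RNA of RNase P, which trims the 5′ ends of tRNA precursors, and RMRP is the RNA of the related enzyme RNase MRP, which acts on precursor rRNA. RN7SK holds the elongation factor P-TEFb in an inactive state, RN7SL1 and RN7SL2 encode the RNA of the signal recognition particle, and TERC is the template RNA of telomerase. TERC is made by RNA polymerase II and the others by RNA polymerase III.

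The stretches around the summits of RPPH1, RMRP, RN7SK and TERC are shown first, since the position of the summit within the RNA is the main subject of what follows. The summit is the base at which the peak caller counted the most reads. Whether reads were lengthened before counting is not known from the files, and no peak was narrower than 293 bp in replicate 1 or 294 bp in replicate 2. The summit, and the part of a peak upstream of a gene, may therefore differ from where the sequenced reads lie. The first 100 bases of the gene are given for 3 genes and bases 141 to 260 for TERC, 5′ to 3′ on the gene strand, read from hg38. Capitals mark the bases from 5 before the first summit to 5 after the last. They lie at chr14:20343308-20343407 (RPPH1, minus strand), chr9:35657918-35658017 (RMRP, minus), chr6:52995621-52995720 (RN7SK, plus) and chr3:169764801-169764920 (TERC, minus).
RPPH1: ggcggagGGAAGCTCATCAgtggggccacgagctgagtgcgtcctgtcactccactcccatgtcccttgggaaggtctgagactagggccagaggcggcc
RMRP: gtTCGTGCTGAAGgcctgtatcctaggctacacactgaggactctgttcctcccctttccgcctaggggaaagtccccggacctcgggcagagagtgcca
RN7SK: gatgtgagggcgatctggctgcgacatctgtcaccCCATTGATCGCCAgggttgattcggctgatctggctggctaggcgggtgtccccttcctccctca
TERC: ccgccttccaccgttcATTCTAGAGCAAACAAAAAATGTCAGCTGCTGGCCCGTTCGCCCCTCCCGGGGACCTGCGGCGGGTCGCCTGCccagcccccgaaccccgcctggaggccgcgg

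The lists were of similar depth as far as the peaks show it. Library totals were not given, but the pileup, the number of reads at the summit, could be worked back for every peak from its fold and p-value, and the median pileup of either list came to 22 reads. The fold enrichment, which is the pileup plus 1 over the local background plus 1, was 6.89 at the median of replicate 1 and 7.13 at that of replicate 2. Peaks have no strand, so the strand of the RNA beneath is not known from the files. No input library was analysed here, and RNA abundance was not measured, so the extent of binding and the amount of the RNA cannot be told apart.

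RPPH1 (ENSG00000277209.1, annotated as a ribozyme, chromosome 14, 20343075 to 20343407, minus strand, 333 nt) had the strongest peaks of the 6 by fold enrichment. It was 25.3 in replicate 1 and 26.9 in replicate 2 (26.1 ± 1.16, SD, n = 2), which ranked 6 and 3 in the lists. The pileup was 153 reads in replicate 1 (95% exact Poisson interval 129.7 to 179) and 218 in replicate 2 (190.0 to 249). These intervals do not overlap, and the local background was higher in replicate 2 as well, 7.14 against 5.10 reads, so the fold differed less than the pileup. By the −log10 q-value, which was 157.9 and 225.6, the peak ranked 7 in replicate 1 and was the top peak of replicate 2.

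The summit of RPPH1 lay at nucleotide 13 of the RNA in replicate 1 and 14 in replicate 2. The peaks were 553 and 564 bp wide, and reached 264 and 260 bp upstream of the first base of the gene while ending inside it. They covered 86.8% and 91.3% of the gene. In the RefSeq annotation, RPPH1 starts 4 nt further upstream. Under the upstream part lies the 5′ end of PARP2, a DNA repair enzyme gene on the plus strand, of which 57 and 53 bp of a UTR exon are covered, but the summits lay 220 and 221 bp away from it. A lncRNA gene, ENSG00000259001, spans all of RPPH1 on the same strand, so both genes lie beneath the summit.

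RMRP (ENSG00000277027.1, ribozyme, chromosome 9, 35657754 to 35658017, minus strand, 264 nt) had the most reads of the 6 in both replicates, 188 (162 to 217) in replicate 1 and 220 (192 to 251) in replicate 2. Its fold enrichment was 19.7 and 23.3 (21.5 ± 2.56, SD, n = 2), below that of RPPH1 in each list, over a background of 8.58 and 8.47 reads. By −log10 q it ranked 2 in both lists, at 169.5 and 214.3. Its summit was at the same base in both replicates, nucleotide 8 of the RNA. The peaks were 506 and 517 bp wide, with 254 and 256 bp upstream of the gene, and covered 95.5% and 98.9% of it. No other annotated gene lay beneath them.

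RN7SK (ENSG00000283293.1, chromosome 6, 52995621 to 52995948, plus strand, 328 nt) had a fold enrichment of 19.9 in replicate 1 and 21.5 in replicate 2 (20.7 ± 1.09, SD, n = 2). Its pileup was 99 reads (80.5 to 121) and 119 reads (98.6 to 142), with overlapping intervals. Both peaks began at the same base, 255 bp upstream of the gene, and the summits were at nucleotides 43 and 41. They were 578 and 576 bp wide and covered 98.5% and 97.9% of the gene. The only other gene beneath was a second annotation of the same RNA.

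TERC (ENSG00000270141.3, chromosome 3, 169764520 to 169765060, minus strand, 541 nt in GENCODE and 451 nt in RefSeq) was the weakest of the 6 by pileup in replicate 1, with 35 reads (24.4 to 48.7), and in replicate 2, with 64 (49.3 to 81.7). Its fold enrichment was 14.8 and 18.6 (16.7 ± 2.68, SD, n = 2), still above 97.9% and 99.3% of the peaks. The summits lay at nucleotides 224 and 162, so TERC was the gene whose summit in both replicates was far from the first base. Its peaks were 587 and 585 bp wide, with 135 and 141 bp upstream of the gene. They ended at 169764609 and 169764617, close to the 3′ end of the RNA in RefSeq, which is at 169764610. Only a second annotation of TERC lay beneath them.

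RN7SL2 (ENSG00000274012.1, chromosome 14, 49862550 to 49862849, minus strand, 300 nt) had a fold enrichment of 17.9 and 23.6 (20.7 ± 3.98, SD, n = 2), with a mean equal to that of RN7SK at this precision. Its pileup was 39 reads (27.7 to 53.3) in replicate 1 and 87 (69.7 to 107) in replicate 2. The ratio of 2.23 was above the 95th percentile of 2.17 over the 12701 pairs of overlapping peaks. The background differed by nearly the same ratio, 2.22. Summits were at nucleotides 43 and 37, and the peaks, 461 and 470 bp wide, reached 165 and 177 bp upstream. A lncRNA gene, ENSG00000282885, lay beneath on the same strand.

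RN7SL1 (ENSG00000276168.1, chromosome 14, 49586580 to 49586878, plus strand, 299 nt) was the exception among the 6. In replicate 1 its peak ran from 49585963 to 49586681, covered 34.1% of the gene, and had its summit 457 bp upstream of the first base. That summit lies in an exon of RPS29, a ribosomal protein gene on the minus strand, and the whole peak lies within RPS29. In replicate 2 the peak ran from 49585977 to 49586870, covered 97.3% of the gene, and had its summit at nucleotide 17 of RN7SL1, in an RPS29 intron. The fold enrichment was 11.4 and 17.6 (14.5 ± 4.39, SD, n = 2) and the pileup 50 reads (37.1 to 65.9) and 82 reads (65.2 to 102). The value of replicate 1 therefore describes a base in RPS29 and not one in RN7SL1. These were the widest peaks of the 6 genes, at 719 and 894 bp.

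**Figure D1:**
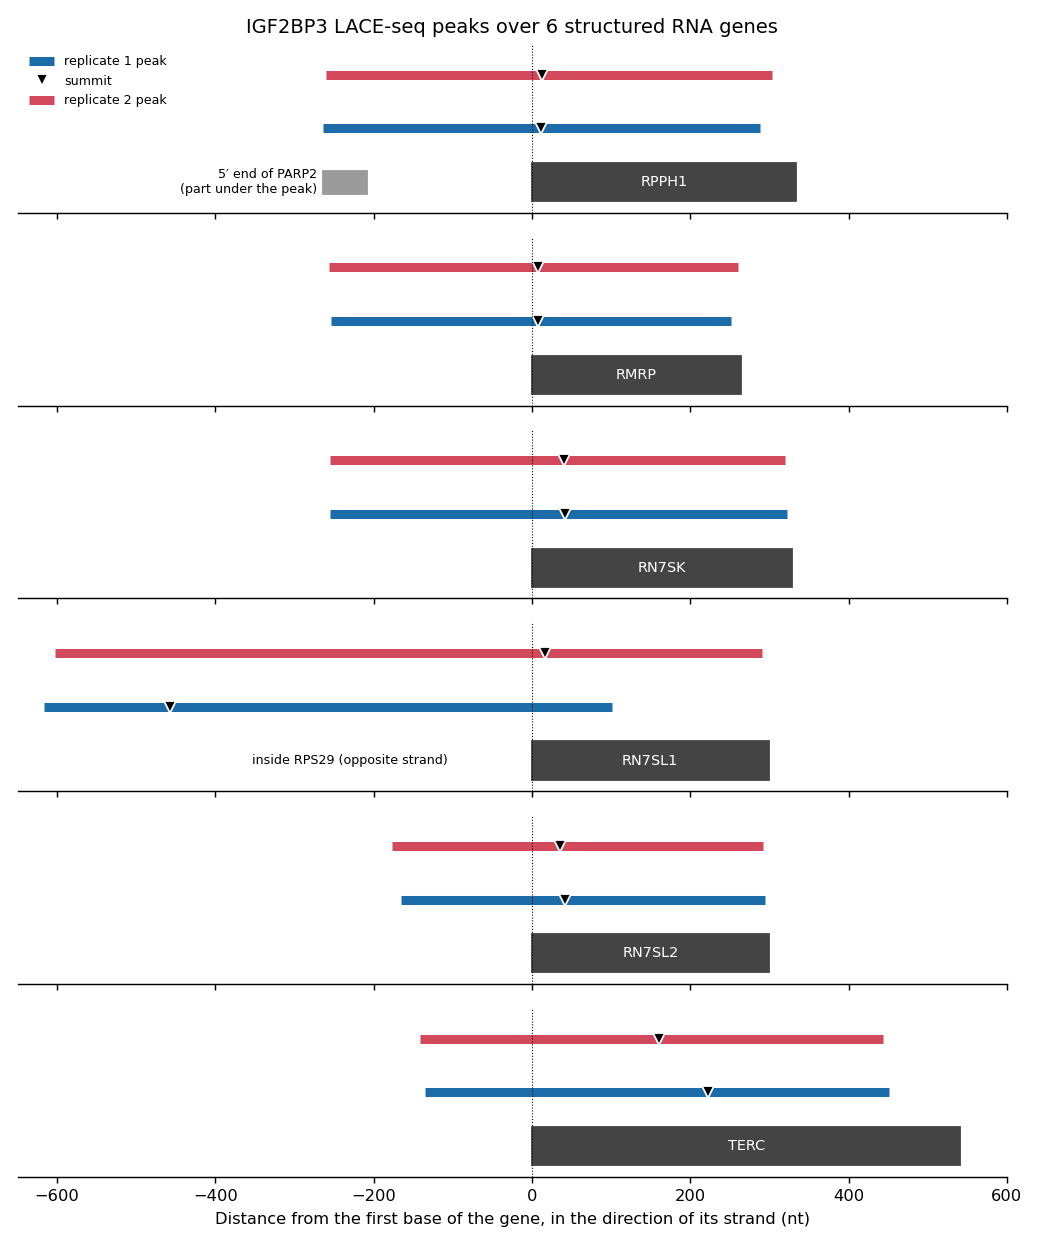
Peaks of both replicates (bars) and their summits (triangles) over each gene (dark box), in nt from its first base in the direction of its strand. The peaks of each gene begin upstream of it and end before its last base in GENCODE. The summits lie close to the first base except for TERC and for RN7SL1 in replicate 1, which is 457 bp upstream.

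The order by mean fold enrichment was RPPH1, RMRP, RN7SL2, RN7SK, TERC and RN7SL1. RPPH1 was above the others in both lists, and its mean differed from that of RMRP by more than the SD of either. RMRP, RN7SL2 and RN7SK differed from each other by less than the SD of RMRP, and TERC and RN7SL1 by less than the SD of either. The step from RN7SK down to TERC was larger than both SDs. The fold enrichment was above the 95th percentile of the list for 5 of 6 genes in replicate 1, where RN7SL1 stood at percentile 91.9, and for 6 of 6 in replicate 2. By pileup this held for 3 and 5 of the 6.

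All 6 genes had higher values in replicate 2 by fold enrichment and by pileup. The fold ratio of replicate 2 over replicate 1 was between 1.06 and 1.54 and the pileup ratio between 1.17 and 2.23. The 1.54 is that of RN7SL1, whose summits lie 473 bp apart, with that of replicate 1 in RPS29. It therefore compares different sites, and the next highest fold ratio was 1.31, in RN7SL2. Over the 12701 pairs the medians were 1.06 and 1.00, and 58.2% of pairs were higher in replicate 2 by fold and 47.1% by pileup. The pileup intervals of the replicates did not overlap for 3 genes, RPPH1, RN7SL2 and TERC. With 1 library for each replicate and no total read number, a difference in depth and a difference at these genes cannot be told apart.

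**Figure D2:**
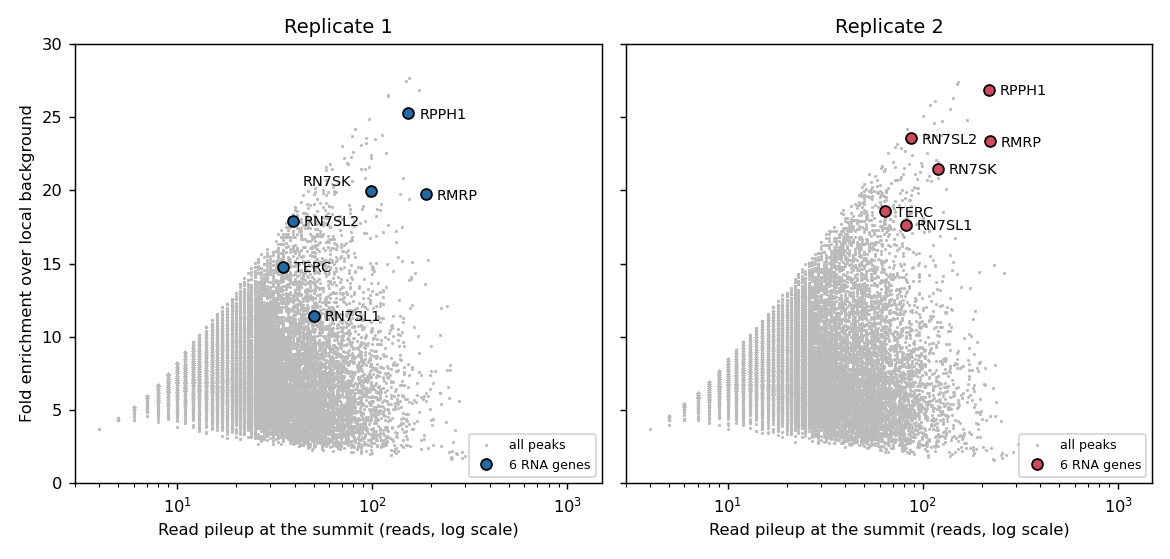
Fold enrichment against the read pileup at the summit (log scale) for all peaks (grey) and the 6 genes (large points) of each replicate. RPPH1 and RMRP combine a high fold with 153 to 220 reads, while RN7SL2 and TERC reach their fold in replicate 1 with 39 and 35 reads.

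Of all peaks, 60.1% in replicate 1 and 61.2% in replicate 2 overlapped the other list by at least 1 bp. All 6 genes had such a pair. The summits of a pair were 1 bp apart in RPPH1, 0 in RMRP, 2 in RN7SK, 6 in RN7SL2, 62 in TERC and 473 in RN7SL1. Over all pairs the median distance was 38 bp, and 26.0% of pairs had summits within 10 bp, against 4 of the 6 here.

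As given in the files, most summits lay at the 5′ end. In replicate 1, 4 of the 6 lay within 50 nt of the first base of the gene, and in replicate 2, 5 of the 6. None lay within 50 nt of the last base. The position depends on which base of the peak is taken. With a shift of 146 and 147 nt in the direction of the gene, set by the narrowest peak of each list (293 and 294 bp), 0 of the 12 lay within 50 nt of the first base. The moved summits of RPPH1 were then at nucleotides 159 and 161 and those of RMRP at 154 and 155. Of the other genes of 250 to 550 bp with a peak, 31.9% in replicate 1 and 31.4% in replicate 2 had the summit within 50 nt of the first base, and 4.90% and 4.02% within 50 nt of the last. With the move, 4.20% and 6.70% of those other genes had the summit within 50 nt of the first base. By the GENCODE ends, all 12 peaks reached past the first base and not past the last, against 63.9% and 67.8% for those other short genes. By RefSeq, the TERC peak of replicate 1 reached 169764609, just past the last base of the RNA at 169764610. Between 23.0% and 85.8% of the width of a peak lay upstream of the gene. As the genes were chosen with their peaks known, these counts are given beside the shares with no test.

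**Figure D3:**
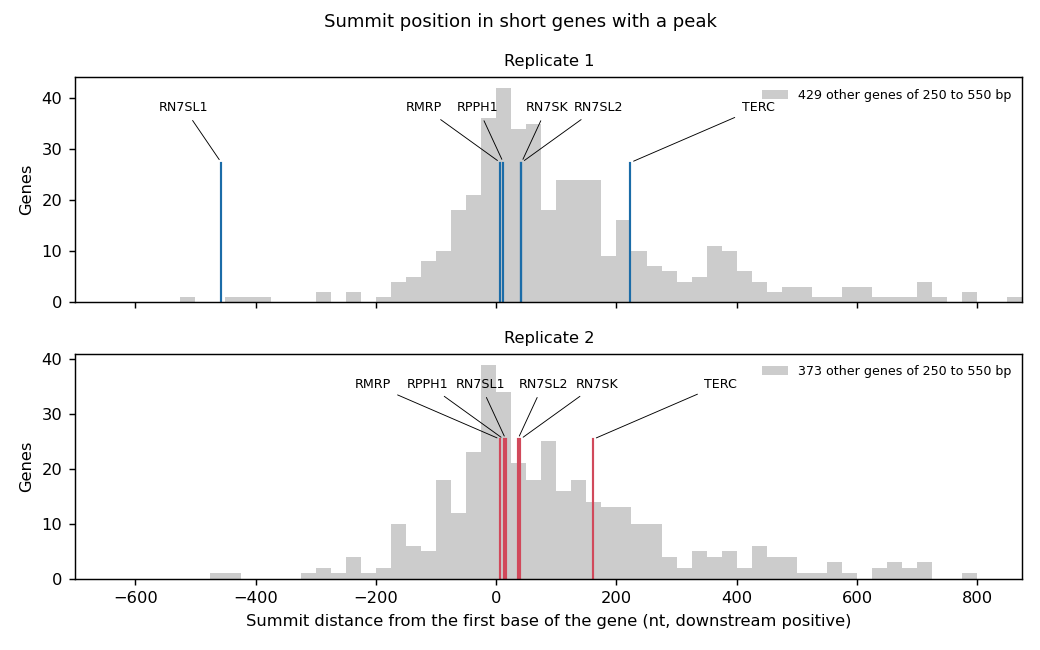
Distance of the summit from the first base of the gene in nt, downstream positive, for other genes of 250 to 550 bp with a peak (grey, 25-nt bins, 429 genes in replicate 1 and 373 in replicate 2) and for the 6 genes (lines). Summits beyond the axis are not drawn; those of RPPH1, RMRP, RN7SK and RN7SL2 lie between 7 and 42 nt in both replicates.

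The 60 bases upstream of RPPH1, RMRP and RN7SK lie under all of their peaks, and are shown for the motif of the TATA box, which fixes the start of transcription in genes of this kind. TATAA or its reverse complement TTATA is in capitals; in RPPH1 they overlap. They lie at chr14:20343408-20343467 (RPPH1, minus strand), chr9:35658018-35658077 (RMRP, minus) and chr6:52995561-52995620 (RN7SK, plus) of hg38.
RPPH1 upstream: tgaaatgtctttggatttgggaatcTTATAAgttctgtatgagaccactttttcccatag
RMRP upstream: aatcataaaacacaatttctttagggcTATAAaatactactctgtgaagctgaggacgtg
RN7SK upstream: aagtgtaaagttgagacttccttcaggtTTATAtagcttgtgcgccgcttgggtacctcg

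TATAA began 34 nt before RPPH1, 33 nt before RMRP and 28 nt before TERC, and TTATA began 32 nt before RN7SK. Neither was found in the 60 nt before RN7SL1 or RN7SL2. On either strand, 6.69% of 35116 RefSeq promoters (GRCh38.p14) held the motif in the same window. The octamer ATTTGCAT, searched on both strands, was found within 250 nt upstream of RPPH1 (101 nt before the gene) and RMRP (217 nt), against 1.63% of the promoters. The summits lay downstream of these motifs, inside the RNA, in all 3 genes shown.

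The sequences of RPPH1, RMRP and TERC were all but unique in the genome, whereas those of the other 3 genes were not. Each stretch of 31 bases was counted in hg38 on both strands with no mismatch. All 303 stretches of RPPH1, all 511 of TERC and 233 of 234 of RMRP occurred once. In RN7SK, 31 of 298 occurred once, with a median of 5 copies and a maximum of 28. In RN7SL1 it was 0 of 269 and in RN7SL2 12 of 270, each with a median of 7 copies and a maximum of 41890.

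The bases at the summits were among the repeated ones in these genes. The 31 bases centred on the summit occurred 8 and 12 times for RN7SK, and 1206 and 1896 times for RN7SL2. For RN7SL1 they occurred 5 times in replicate 2, and once in replicate 1, where the summit is in RPS29. RN7SL1 and RN7SL2 are 98.3% identical to each other, with 2 substitutions and 3 gapped positions in 301 aligned columns, so reads cannot be divided between them with confidence. Part of 7SL RNA is shared with the Alu repeats, which derive from it. The study's methods allowed a read up to 10 places, and 12.4% of the stretches of RN7SK, 21.9% of RN7SL1 and 22.2% of RN7SL2 exceeded that. Whether that limit was applied to these peak lists is not known, since the submitters' processing notes name another aligner.

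**Figure D4:**
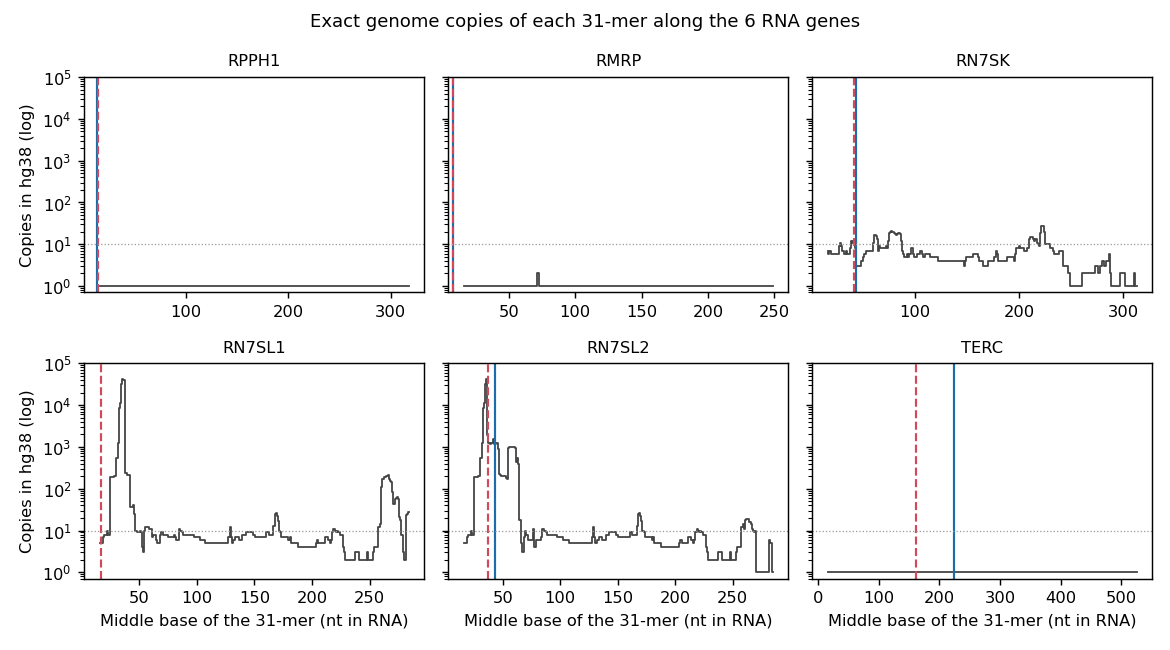
Number of exact copies in hg38 (log scale) of each stretch of 31 bases, drawn at its middle base, along the 6 genes, with the summits of replicate 1 (solid blue) and replicate 2 (dashed red) and a dotted line at 10 copies. RPPH1 and TERC stay at 1 copy throughout, and both RN7SL2 summits lie where stretches have over 1000 copies.

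Named genomic copies of the 6 genes were counted from their GENCODE symbols. None of the 2 copies of RPPH1 and the 1 copy of RMRP had a peak. Of 293 copies of RN7SK, 31 had overlapping peaks in both lists, 7 a peak in replicate 1 alone and 14 in replicate 2 alone. Of 677 copies of RN7SL1 and RN7SL2, only 6 had overlapping peaks in both, 1 in replicate 1 alone and 5 in replicate 2 alone. In GENCODE as a whole, 5.54% of 5109 small structured RNA genes, these copies included, had a peak in both lists.

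The peaks at copies of RN7SK were mostly in sequence that occurs once. The summit stretch had a single copy for 30 of the 31 in replicate 1 and 29 in replicate 2, and the summit lay within 50 nt of the first base of the copy in 23 and 24, with medians of 20 and 15 nt upstream of it. The strongest was RN7SKP203 (chromosome 2, 76445079 to 76445410, minus strand, in no longer gene). It had a fold enrichment of 27.7 and 27.3, ranks 1 and 2 in the lists, with pileups of 154 and 149 reads and both summits 24 nt upstream of its first base. RN7SKP79 (20.7 and 21.6), RN7SKP80 (19.7 and 21.9) and RN7SKP230 (17.8 and 18.9) followed by mean fold. RN7SKP203 is 84.6% identical to RN7SK and had a higher fold in both replicates. The 31 copies with peaks in both lists had a median identity of 78.0% to RN7SK and a median length of 318 nt, against 71.6% and 303 nt for the 241 copies with none. Of the 31, 20 lay inside a longer gene, 64.5%, against 57.3% of the 241. Expression of the copies was not measured.

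Among copies of RN7SL1 and RN7SL2 the strongest was RN7SL5P (chromosome 9, 9442060 to 9442380, plus strand, within PTPRD on the other strand). Its fold enrichment was 13.6 and 22.6, with 21 and 66 reads, and its summits 20 nt upstream and 8 nt downstream of the first base occurred once. RN7SL566P, RN7SL4P and RN7SL732P followed with mean folds below that of RN7SL1, and RN7SL4P had its summits 100 nt downstream and 2 nt upstream of its first base. The summits of RN7SL566P lay 673 and 650 nt downstream of its first base and those of RN7SL732P at −486 and −491 nt, all outside the copy.

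Other structured RNA genes were counted in the same way. Of 42 listed genes found in the annotation, 27 had overlapping peaks in both lists, 3 a peak in replicate 2 alone and 12 no peak. Over the 5109 small structured RNA genes of GENCODE, most of which are not on this list, 5.54% had a peak in both lists. The list was chosen with earlier results of these data known, so the counts were not tested against that share. The 27 had a median mean fold of 13.8, from 6.06 to 25.8, against 20.7 for the 6 genes and 7.65 for all pairs. Of the 27, 13 were above the lowest of the 6 genes and 0 above RPPH1, and 2 of the 12701 pairs were above RPPH1.

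The summit was inside the gene for 8 of the 27 in each replicate and upstream of it for the other 19, so most of the folds below are at bases outside the annotated RNA, as for RN7SL1 in replicate 1. For the 6 genes it was inside in 5 and 6.

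All 8 listed box C/D snoRNA genes of rRNA processing had peaks in both lists, and they included the strongest of these genes. The SNORD3 genes among them all encode U3, so the 8 genes do not stand for 8 different RNAs. Summit stretches of the SNORD3 genes occurred 2 to 6 times, except once for SNORD3D in replicate 1. Reads may therefore be shared between these genes. SNORD3D, a U3 gene, had folds of 26.9 and 24.8, SNORD118 (U8) 22.5 and 23.7, SNORD13 (U13) 18.2 and 19.7, and SNORD3B-1 17.8 and 17.2. The SNORD118 summits lay upstream, at −60 and −57 nt from the first base, as did that of SNORD13 in replicate 1, at −63 nt, while both SNORD3D summits were inside. Of 23 spliceosomal snRNA genes, 14 had them, led by RNU1-4 (21.5 and 24.6), RNU5A-1 (18.5 and 22.9), RNU11 (20.1 and 19.9) and RNU2-2P (18.9 and 17.4). Counted from the first base of the gene, the summits of RNU5A-1 lay upstream at −74 and −140 nt, those of RNU11 at −132 and −119 nt, that of RNU1-4 in replicate 1 at −113 nt and that of RNU2-2P in replicate 2 at −23 nt. The other summits of RNU1-4 and RNU2-2P were inside the gene, in stretches with 11 and 34 copies. Both SNORA73 genes and 2 of the 4 vault RNA genes, VTRNA1-1 and VTRNA1-2, also had them. Of the Y RNA genes, which belong to Ro particles, RNY1 had folds of 17.8 and 17.2, with summits upstream at −63 and −83 nt, and RNY3 and RNY4 had no peak. RNU7-1 and the brain RNA BCYRN1 had none either. Genes without a peak may still be bound.

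**Figure D5:**
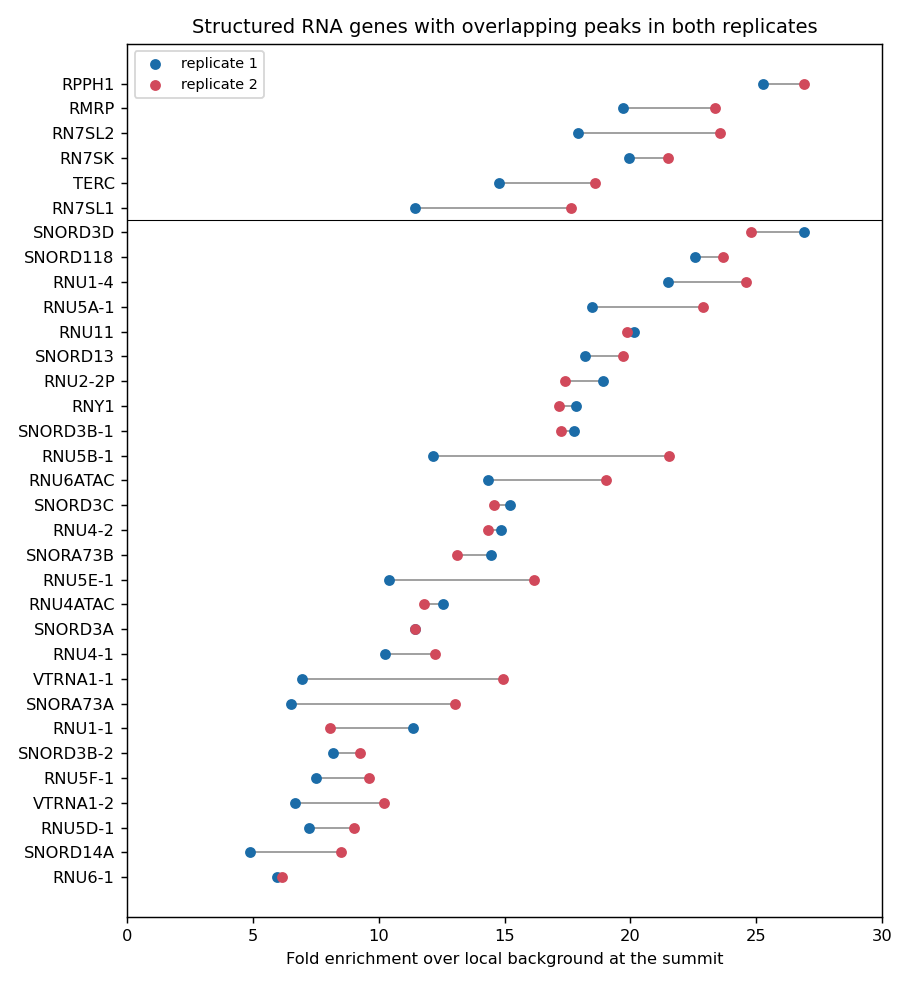
Fold enrichment in replicate 1 (blue) and replicate 2 (red) for the 6 genes (above the line) and the 27 other listed structured RNA genes with overlapping peaks in both replicates. RPPH1 has the highest mean, 26.1, and SNORD3D the next, 25.8; the 6 genes all lie higher in replicate 2.

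The peaks most like those of RPPH1 were sought by fold and pileup in both lists, as the distance over 4 log2 values, with 1 peak per gene and the gene taken at the summit. The nearest was that of SNORD3D with ENSG00000262202, at a distance of 0.445, with 174 and 168 reads. RPL41P5, a processed copy of a ribosomal protein gene (folds 25.2 and 24.8, 157 and 125 reads, distance 0.812), and an intron of MAGI3 (folds 20.8 and 23.8, 143 and 124 reads, distance 0.884) came next. The RN7SKP203 peak, whose summit is in no gene and so was not ranked, was at 0.565. The stretch of 31 bases at the summit occurred once for RPPH1 in both replicates. It occurred 1 and 5 times for SNORD3D, 8 and 8 times for RPL41P5, and 2 and 1 times for MAGI3. Likeness was measured over 2 libraries and covers size of the peak alone.

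The genes of the protein partners of the 6 RNAs mostly had peaks of lower fold enrichment, counted over the whole gene, introns included. Pileup did not follow fold throughout. SRPRA had 152 and 129 reads, above RN7SK (99 and 119) and below RMRP (188 and 220) in each replicate. Of 33 genes, 18 had a peak in both lists, 15 of them overlapping, 3 in replicate 1 alone and 12 in neither. Among all protein-coding genes 34.7% had a peak in both. Each of the 15 was taken at its overlapping pair with the highest mean fold, whereas the value for all pairs has no such choice per gene. With that difference, the 15 had a median mean fold of 7.07, beside 7.65 for all pairs, and 1 of them was above the lowest of the 6 RNA genes. That one was NOP10, an H/ACA protein that binds TERC, with folds of 16.3 and 14.6 and summits 1 bp apart.

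By complex, 4 of 11 genes of RNase P and RNase MRP had overlapping peaks, the protein subunits POP4 (7.57 and 9.38), RPP25 (6.15 and 7.80), POP5 (5.68 and 6.72) and POP1 (5.78 and 6.15, with the summit of replicate 1 upstream of the gene at −61 nt). Of 7 genes of the 7SK particle and P-TEFb, 4 had them. These were the kinase CDK9 (7.67 and 7.67), HEXIM2 (7.58 and 7.29), cyclin T2, CCNT2 (7.03 and 5.33) and HEXIM1 (3.71 and 6.56). Of 8 genes of the signal recognition particle and its receptor, 5 had them, led by SRP68 (9.47 and 9.58), SRP14 (10.1 and 6.56), SRPRA (6.54 and 7.80) and SRPRB (5.79 and 8.34). Of 7 telomerase genes, NOP10 and NHP2 (4.80 and 5.07) had them. TERT, the catalytic subunit, had no peak in either list. With a peak in both lists, overlapping or not, the counts in this order were 4 of 11, 5 of 7, 6 of 8 and 3 of 7. By that rule the share of all protein-coding genes was 34.7%, and no difference from it was tested.

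Because the study relates IGF2BP3 to the m6A motif, windows of 101 nt centred on the summits as given in the files were searched. The motifs were GGAC and the longer TGGAC that contains it, on both strands. GGAC was in the window of all 6 genes in both replicates, against 48.8% and 54.7% of all peaks. In windows reaching 25 nt to each side it was in 4 and 3 of the 6, against 29.7% and 33.9%, and neither RPPH1 nor RN7SK held it there. The RN7SL1 window of replicate 1, counted for every motif here, was centred 457 bp upstream of that gene, in RPS29. RN7SL1 and RN7SL2 are 98.3% identical, so their windows in replicate 2 hold partly the same sequence and are not separate cases. TGGAC was in 0 of 6 windows in each, against 17.2% and 17.3% of all peaks. With 6 windows, a count of 0 allows a share of up to about 50%, so it does not show a lower share than over all peaks. CACA was in 3 and 2 of the 6 windows (62.4% and 59.0% of all) and AAAAA in 1 and 2 (27.7% and 20.0%). The median GC content of the windows was 59.4% and 61.4%, against 49.5% and 56.4%, and the genes themselves had 58.2% to 66.7%.

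On the RNA strand GGAC was less close to the summits. It began at nucleotides 39 and 79 of RMRP, 31 nt from the summit, and at 208, 420 and 433 of TERC, 16 nt from the nearer summit. In RPPH1 it began at 187 and 297, in RN7SK at 146 and 169 and in both 7SL genes at 155, each over 100 nt from the summit. The single TGGAC on the RNA strand of the 6 began at nucleotide 186 of RPPH1, 172 nt from the nearer summit. For RPPH1, RN7SK and the 7SL genes, the GGAC in these windows was thus on the other strand or upstream of the gene. This holds for the summits as given. RPPH1 had its moved summits at nucleotides 159 and 161, RN7SK at 189 and 188 and RN7SL2 at 189 and 184. These and that of RN7SL1 in replicate 2 (164) lie closer to GGAC on the RNA strand, and in RPPH1 to TGGAC. The moved summits of RMRP (154 and 155) and TERC (370 and 309) lie farther from GGAC. Windows around moved summits were not searched. The peaks carry no strand, and a match is a description of the sequence alone.

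As predicted by RNAfold at minimum free energy, 59.1% to 69.3% of the bases of the 6 RNAs were paired. In the bases within 10 nt of a summit the share was 76.2% and 71.4% for RPPH1 and 83.3% for RMRP in both replicates. It was 71.4% and 81.0% for RN7SK, 71.4% in both for RN7SL2, 66.7% for RN7SL1 in replicate 2, and 95.2% and 57.1% for TERC. The TERC shares were the same when the 451 nt of RefSeq were folded in place of the 541 nt of GENCODE. The structures were predicted from sequence, with no protein present. Pairing at the moved summits was not examined.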

How the data were processed

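IGF2BP3 LACE-seq was analysed from 2 samples, replicates 1 and 2 of OE-19 cells. According to the study's methods, reads not matching pre-rRNA were aligned to hg38 with Bowtie and peaks were called with Piranha, whereas the submitters' processing notes name fastp, HISAT2 and MACS2. The authors deposited 1 peak list per replicate in the layout of MACS2, with the fold enrichment (a ratio over local background) and p-value and q-value on the −log10 scale. A deposited score column, made by the authors' caller from the q-value, was not used. The unit of depth is the pileup, recovered for 21142 and 20799 peaks from the deposited fold and p-value under a Poisson distribution (within 0.002 on the −log10 scale). It may hold copies of 1 molecule, so intervals cover counting error only.

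Peaks were placed on GENCODE 44 genes with Python 3.11.15, pandas 2.3.3 and pysam 0.24.0, within 200 bp for RNA genes and by overlap for protein-coding genes. Coordinates are 1-based. Structures were predicted with RNAfold 2.7.2. Some sequences are not reported here. Overlap and pileup recovery were tested on simulated data. The members and lists were chosen with earlier results of these data known. Named besides the members were genes beneath their peaks, up to 4 genes per list by mean fold, and the 3 nearest to RPPH1. No comparison was tested; labels do not say whether the replicates are separate cultures. Alternatives changed the distance, overlap rule, peaks, measure of strength, window and replicates used.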

Additional observations from a re-analysis of the deposited data

How the results depend on the processing

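There were 71 alternative values for 29 results. Of these, 24 left out 1 of the 2 replicates, and apart from a change of sign such values cannot leave the replicate SD, so they say nothing about stability. The summit of RN7SL1 changed sign among them, from a mean of −220.5 nt to 16 nt downstream without replicate 1 and −457 nt without replicate 2. Of the other 47, 32 changed by no more than the replicate SD (for counts, by at most 1.5 times) and 15 moved. Peaks in both lists were found for 6 of the 6 genes at 0, 200 and 1000 bp. When only peaks whose summit stretch of 31 bases occurs once were kept, 3 genes (RPPH1, RMRP and TERC) had a peak in both lists, and 3 peaks were left in replicate 2; fewer peaks are used by construction. Moving summits downstream by 146 and 147 nt, added after seeing the data, took the summits within 50 nt of the first base from 9 of 12 to 0, and left 5 genes with both moved summits inside the gene. GGAC was in 7 of 12 windows of 25 nt to each side, against 12 of 12. TGGAC, absent from the 101-nt windows, was in 8 of 12 whole peaks, 4 of 6 in each replicate, against 51.4% and 52.6% of all peaks. By pileup in place of fold, the mean percentile was 82.3 for TERC and 86.9 for RN7SL2. No paired analysis was possible because the result comes from no test and there is a single group. The number of libraries, 2, limits every SD.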
